A study of Mus musculus with 12 samples.

Results

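The comparison described here sets 3 mouse colon myofibroblast lines that lack the miR-143/145 cluster (KO4, KO10 and KO15) against 3 wild-type lines (WT5, WT7 and WT13), all cultured without lipopolysaccharide (LPS). Its members were taken from the genotype and treatment labels, and they are 6 of the 12 arrays of the series. The other 6 arrays hold the same 6 lines after 24 h with 1 ug/mL LPS. The cells are intestinal subepithelial myofibroblasts (ISEMFs), and all lines grew in serum-containing medium with added insulin, transferrin and epidermal growth factor. KO stands for the labelled genotype miR-143/145 null and WT for miR-143/145 wildtype. The sources used here name no strain, age or sex for the mice. Whether each line has its own animal of origin is not in the labels either, so part of the variation among the 6 lines may be technical. Within each genotype the lines differed in Xist and Eif2s3y, as given below. The p-values rest on a spread pooled over the untreated and LPS arrays, with the arrays of a line counted as separate.

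MiR-143 and miR-145 are microRNAs made from one transcript, and in adult tissues they are known above all from smooth muscle and other mesenchymal cells. A microRNA pairs through its seed with sites in messenger RNAs, lowers their stability or translation, and so tends to act directly by lowering its targets. Subepithelial myofibroblasts lie beneath the crypts and secrete growth factors, Wnt and BMP ligands and matrix for the epithelium above them.

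The 6 untreated arrays had 19223 to 19741 of 45281 probes detected, and median unnormalised signals of 115.49 to 119.81. Of 20 fibroblast and myofibroblast markers 18 were detected on all 6 arrays, and of 23 contractile genes 20 were. The markers detected on none of the 6 numbered 9 of 18 for epithelium, 7 of 15 for endothelium, 3 of 15 for leukocytes, 5 of 10 for glia and neurons and 2 of 10 for mesothelium and Cajal cells. Epcam and Vil1 of epithelium, Pecam1 and Vwf of endothelium, and Ptprc of leukocytes were among those not detected. On all 6 arrays, however, 6 of 18 epithelial, 4 of 15 endothelial and 8 of 15 leukocyte markers were detected. The same held for 3 of 10 of glia and neurons and 5 of 10 of mesothelium and Cajal cells. Detected throughout were Krt8 of epithelium (mean 7.27 in WT and 6.93 in KO), Esam of endothelium (8.54 and 8.29) and Laptm5 of leukocytes (8.96 and 8.17). Arrays of one genotype correlated at 0.9924 to 0.9955 across genes and arrays of different genotype at 0.9904 to 0.9937. On the first principal component of the 6 arrays (33.6% of the variance) the WT lines lay between -14.2 and -8.19 and the KO lines between 7.11 and 15.8. The second component (22%) set KO4, at -18.9, apart from KO10 and KO15 at 4.24 and 10.1. Xist was at 9.69 and 9.84 in WT5 and WT7 and at 10.25 and 10.09 in KO4 and KO15, but at 4.39 in WT13 and 4.42 in KO10. The Y-linked gene Eif2s3y was high in those latter lines alone, at 8.57 in WT13 and 8.63 in KO10, so each genotype had 1 line of that pattern.

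Few genes passed the threshold between lines lacking miR-143/145 and wild-type lines: 13 were higher and 7 lower. With 3 lines a side, this counts the genes that passed and not all that may differ. Levels are normalised log2 intensities, so a difference of 1 is a doubling, and a gene was called when limma's p-value, adjusted over all 11060 genes tested, was under 0.05. The calls amount to 0.181% of the genes tested, 0.118% higher and 0.0633% lower in KO. Differences among the higher genes ran from 0.57 to 1.45 and among the lower genes from -0.70 to -1.69. The 6 lines did not overlap for any of these 20 genes. The gap between the nearest lines of opposite genotype ran from 0.378 for 6330403K07Rik to 1.27 for Pmaip1. Over all genes tested, KO lines lay wholly above WT lines for 9.57% and wholly below for 9.12%, and 9.11% had an unadjusted p under 0.05.

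**Figure D1:**
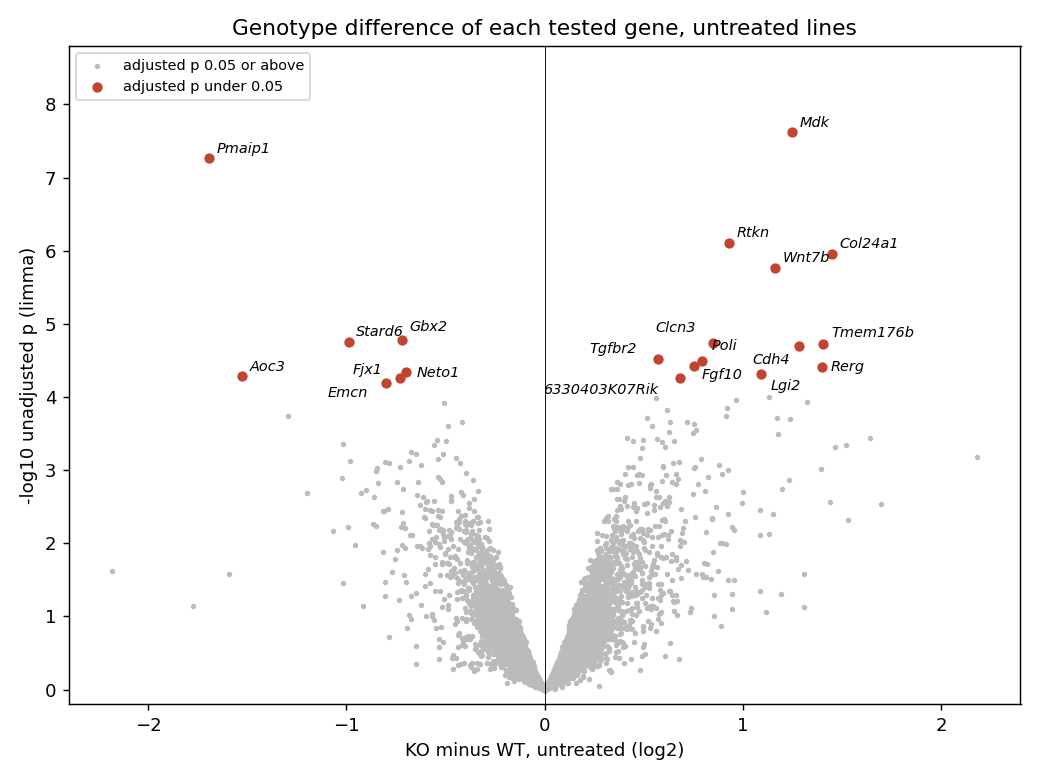
Each point is 1 of the 11060 genes tested, with the KO minus WT difference of untreated lines (log2) on the x axis and -log10 of the unadjusted limma p on the y axis. The 20 genes with an adjusted p under 0.05 are in red and named, with Mdk at 1.25 and Pmaip1 at -1.69 standing highest.

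The count rests on a spread pooled over all 12 arrays. Fitted on the 6 untreated arrays alone, 3 genes were called: Rtkn (adjusted p = 0.0377) and Mdk (adjusted p = 0.0221) higher, and Pmaip1 (adjusted p = 0.0377) lower. With the line as a random block the count was 28, 20 higher and 8 lower. Starting from the processed table that the authors deposited, the fit called 13 higher and 2 lower. Only 11 of the 20 genes were among these 15. Leaving out 1 array gave 9 (WT5), 6 (WT7), 6 (WT13), 11 (KO4), 5 (KO10) or 46 (KO15) calls. The 5 genes called in all 6 of those fits were Col24a1, Mdk, Pmaip1, Rtkn and Wnt7b, and the other 15 were called in 1 to 3 of them. Wnt7b, near background, was not called from the authors' processed values or without background correction. Its difference was as low as 0.363 among the alternative settings.

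Secreted growth factors and ligands were among the higher genes. Mdk encodes midkine, a heparin-binding growth factor. It stood at 7.29 in WT5, 7.33 in WT7 and 7.52 in WT13, against 8.64 in KO4, 8.54 in KO10 and 8.71 in KO15, the order kept for all genes that follow. The 3 KO lines lay close together and more than 1 unit above the highest WT line, a 2.37-fold difference (1.25 log2, SE 0.10, adjusted p = 0.000265). Fgf10, a mesenchymal growth factor that signals to epithelium, was an abundant transcript in both genotypes. Its levels were 10.80, 10.86 and 10.50 in the WT lines and 11.34, 11.62 and 11.46 in the KO lines in the same order, 1.69-fold higher (0.76, SE 0.12, adjusted p = 0.0307). Wnt7b, a Wnt ligand gene, lay near background. No WT array detected it (4.57, 4.51 and 4.39), while all 3 KO arrays did (5.90, 5.70 and 5.37). KO lines were at least 1.66-fold higher (adjusted p = 0.00375), where the fold is taken against the lowest detected signal of each WT array.

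Of 22 stromal growth factor genes tested, 2 were called higher (Mdk and Fgf10) and 0 lower, with 13 positive differences and a median of 0.061. That median depended on single lines, at 0.010 without WT13, 0.022 without KO4, 0.12 without WT5 and 0.16 without WT7. Over all genes tested 49.3% of differences were positive and the median was -0.0025. Ptn, the midkine relative pleiotrophin, had a larger difference than Mdk without reaching the threshold (1.53, SE 0.45, adjusted p = 0.253). KO values spread over 12.46, 11.93 and 10.95, against 10.30, 9.84 and 10.62 in WT, so that the groups did not overlap but KO15 lay near WT13. Hgf, the hepatocyte growth factor gene, was at 5.79, 6.19 and 6.03 in WT and 6.41, 6.77 and 6.86 in KO, and did not pass either (0.68, SE 0.15, adjusted p = 0.124).

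Matrix, adhesion and receptor genes made up a second set of the higher genes. Col24a1, a fibrillar collagen chain, was at 5.79, 5.83 and 5.92 in WT and at 7.32, 7.63 and 6.96 in KO, a gap of 1.03 between the nearest lines (1.45, SE 0.16, adjusted p = 0.00305). Cdh4, which encodes R-cadherin, rose from 5.72, 5.15 and 4.77 in WT to 6.63, 6.52 and 6.34 in KO (1.28, SE 0.19, adjusted p = 0.0224). It was detected on 2 of 3 WT arrays, and the WT lines spread more widely than the KO lines. Tgfbr2, the type II receptor of TGF-beta, was among the brightest of the called genes. Its WT lines were at 11.80, 11.88 and 11.80 and its KO lines at 12.37, 12.49 and 12.34, a small difference with little spread in either genotype (0.57, SE 0.09, adjusted p = 0.0294). Rtkn, which encodes rhotekin, was at 6.65, 6.66 and 6.63 in WT and 7.48, 7.53 and 7.72 in KO, with the WT lines almost equal (0.93, SE 0.10, adjusted p = 0.00287).

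Rtkn, Tgfbr2 and Fgf10 have entries in a RefSeq promoter table of build GRCm38.p6, which holds a window of sequence, mostly upstream, around each listed start. It matched 10 of the 16 called genes looked up. The first listed start is shown for Rtkn, the reported target with the smallest p, and for Fgf10, the brightest of the growth factors called. Capitals mark the GC box GGGCGG on either strand, an element common near CpG-rich starts.
Rtkn, chr6:83135558-83135857, + strand: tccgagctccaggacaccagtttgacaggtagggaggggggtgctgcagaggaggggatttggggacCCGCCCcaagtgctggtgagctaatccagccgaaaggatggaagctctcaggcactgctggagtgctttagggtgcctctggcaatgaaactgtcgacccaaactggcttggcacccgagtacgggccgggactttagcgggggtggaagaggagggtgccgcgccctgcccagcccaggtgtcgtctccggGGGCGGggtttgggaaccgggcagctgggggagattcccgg
Fgf10, chr13:118714449-118714748, + strand: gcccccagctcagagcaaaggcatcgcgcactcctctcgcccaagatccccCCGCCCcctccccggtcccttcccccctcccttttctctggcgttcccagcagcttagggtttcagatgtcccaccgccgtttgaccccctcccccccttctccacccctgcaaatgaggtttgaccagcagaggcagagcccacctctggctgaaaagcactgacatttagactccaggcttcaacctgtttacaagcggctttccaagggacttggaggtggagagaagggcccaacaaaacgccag
Both windows are GC-rich, at 64.7% for Rtkn and 60.7% for Fgf10, where the median of all 32851 windows was 52.7%. The table lists 13 windows for 8 of the higher genes, with up to 3 starts of 1 gene counted separately. The GC box occurred in 7 of these 13 windows (53.8%) and in 35.7% of all windows. The TATA box TATAAA, on either strand, occurred in 0 of these 13 windows and in 13.6% of all. These are letter matches in a short window and say nothing of factor binding.

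The remaining higher genes have varied roles. Tmem176b, a membrane protein gene best known from dendritic cells, was at 9.41, 9.79 and 9.37 in WT and 10.44, 11.16 and 11.18 in KO (1.40, SE 0.21, adjusted p = 0.0224). Rerg, a small GTPase gene of the Ras family, was detected on 1 of 3 WT arrays (5.20, 4.76 and 4.65) and on all KO arrays (6.61, 6.45 and 5.75). KO4 and KO10 were far above WT and KO15 less so (1.40, SE 0.22, adjusted p = 0.0307). Lgi2, a secreted leucine-rich protein gene, was at 6.07, 6.35 and 6.18 against 6.90, 7.54 and 7.43 (1.09, SE 0.18, adjusted p = 0.0316). Clcn3 encodes an endosomal chloride-proton exchanger and was at 8.95, 9.12 and 8.96 against 9.70, 9.94 and 9.94 (0.85, SE 0.13, adjusted p = 0.0224). Poli, a gene of translesion DNA synthesis, was at 6.64, 6.45 and 6.76 against 7.37, 7.51 and 7.36 (0.80, SE 0.12, adjusted p = 0.0294). In each of these genes all 3 KO lines were above all WT lines. The uncharacterised gene 6330403K07Rik had the narrowest gap, at 4.99, 4.78 and 4.90 against 5.73, 5.64 and 5.37, and was detected on 1 of 3 WT arrays (0.69, SE 0.11, adjusted p = 0.0316).

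Pmaip1 had the largest difference of any called gene. It encodes NOXA, a BH3-only protein that promotes apoptosis and a target of p53. Its levels were 8.33, 8.25 and 7.80 in WT and 6.24, 6.53 and 6.52 in KO, so even WT13, the lowest WT line, was 1.27 above the highest KO line. KO lines were 3.23-fold lower (-1.69, SE 0.14, adjusted p = 0.0003). Of 24 BCL2 family genes and p53 targets tested, Pmaip1 was the 1 called. The list had 7 positive differences and a median of -0.060. The next smallest p belonged to Gadd45a, a DNA damage response gene, at 9.79, 9.95 and 9.81 in WT and 9.94, 10.40 and 10.45 in KO (0.41, adjusted p = 0.395). Among pro-apoptotic members Bcl2l11 (0.22, adjusted p = 0.583) and Bak1 (-0.40, adjusted p = 0.693) came next without passing. The list's median was -0.014 without KO4 and -0.099 without KO15.

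The other lower genes were expressed at low to middle levels. Aoc3, an amine oxidase gene of smooth muscle and vessels, was at 6.60, 6.74 and 7.44 in WT and 5.24, 5.01 and 5.95 in KO, and both genotypes spread widely (-1.53, SE 0.25, adjusted p = 0.0316). Stard6, of a family of lipid transfer proteins, was at 6.48, 6.66 and 5.99 against 5.30, 5.48 and 5.39 (-0.99, SE 0.15, adjusted p = 0.0224). Gbx2, a homeobox gene, had tight values of 6.46, 6.45 and 6.32 against 5.74, 5.69 and 5.65 (-0.72, SE 0.10, adjusted p = 0.0224). Fjx1, the mouse relative of the Drosophila gene four-jointed, was at 8.37, 8.35 and 8.22 against 7.48, 7.47 and 7.79 (-0.73, SE 0.12, adjusted p = 0.0316). Neto1, an auxiliary subunit gene of kainate receptors, was at 5.67, 5.56 and 5.66 against 4.69, 4.98 and 5.12 and was detected on 2 of 3 KO arrays (-0.70, SE 0.11, adjusted p = 0.0316). In all of these the KO lines lay wholly below the WT lines.

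Emcn, an endothelial sialomucin gene, was at 6.36, 6.47 and 6.52 in WT and 5.78, 5.42 and 5.75 in KO (-0.80, SE 0.13, adjusted p = 0.035). It was the 1 gene called of 8 endothelial markers tested. The other 7 ran from -0.25 (Esam) to 0.20 (Egfl7), and the list's median was 0.069. The median level of the 8 markers was 5.60, 6.05 and 5.84 in the WT lines and 5.53, 5.41 and 5.47 in the KO lines, lower in every KO line, although 6 of the 8 had a positive difference. Without WT5 the median difference was -0.033, and it was 0.11 without KO15 and 0.12 without WT7. Pecam1 and Vwf were detected on no untreated array. In bulk RNA, fewer cells of a type and less RNA per cell cannot be told apart.

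**Figure D2:**
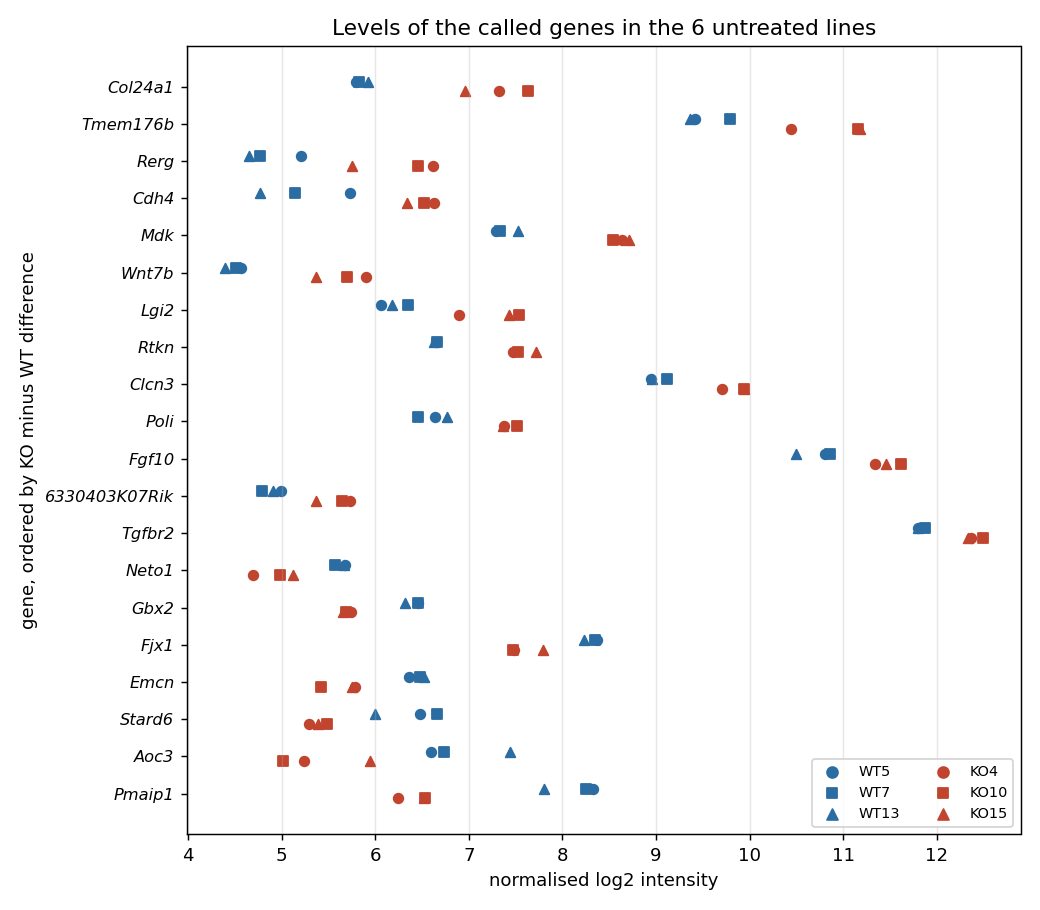
Normalised log2 intensity (x axis) of the 20 called genes (y axis, ordered by difference) in each untreated line, WT in blue and KO in red, with 1 symbol per line. In each row the 3 KO points lie on one side of the 3 WT points, with the widest gap (1.27) for Pmaip1 and the narrowest (0.378) for 6330403K07Rik.

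The KO line nearest to WT was not the same for all called genes. Measured from the WT mean, KO15 was the KO line nearest to WT for 10 of the 20 called genes, KO4 for 7 and KO10 for 3. KO10 was farthest from WT for 8 genes, KO4 for 7 and KO15 for 5. These counts were not made over all genes tested, and whether the lines contributed unequally was not tested. Of the 20 genes, 11 had a mean level under 7, and 5 were detected on fewer than 3 arrays of one genotype (Wnt7b, Cdh4, Rerg, 6330403K07Rik and Neto1).

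Where a called gene had a further probe, that probe went the same way. Of the 20 genes 8 had more than 1 kept probe, with 11 further probes in all. All 11 differed in the same direction and 3 were called in a fit over 17886 probes. These were the second probes of Mdk (1.01, adjusted p = 0.0244) and Fgf10 (0.73, adjusted p = 0.0415) and that of Pmaip1 (adjusted p = 0.0169). The second Pmaip1 probe was at 6.87, 6.55 and 5.67 in WT and was detected on 0 of 3 KO arrays, so its difference has only a bound. Both further Clcn3 probes had differences near that of the first, at 0.95 and 0.82, and so had the second Fjx1 probe at -0.70. The further Col24a1 probes gave 1.39 and 0.64, the dimmest being detected on no WT array. Probes disagreed in size for the reported target genes. The second Tgfbr2 probe, dimmer at a mean of 6.60, gave 0.090 (adjusted p = 0.93). The second Rtkn probe, detected on no untreated array, gave 0.22 (adjusted p = 0.589). With probes averaged per gene, Tgfbr2 had an adjusted p of 0.272.

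Of the called genes 4 lie on chromosome 18, which also carries the miR-143/145 cluster. These were Pmaip1, Stard6 and Neto1, which were lower, and Poli, which was higher. They are 1.41% of the 284 genes tested on that chromosome, where the other autosomes and X had 0% to 0.547% called. Groups without overlap made up 24.3% of genes on chromosome 18 and 15.8% to 21.1% on the other autosomes and X. The median difference on chromosome 18 was 0.0090, close to that of all genes.

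The 10 genes with the smallest p that missed the threshold had adjusted p-values of 0.0512 to 0.0689. None of them overlapped between genotypes, but genes picked for a small p tend not to. Over all genes tested, KO lines lay wholly above WT for 9.57% and wholly below for 9.12%. Of the 10 genes, 8 were higher in KO. Fam13c was at 8.19, 8.49 and 8.15 in WT and 9.57, 9.54 and 9.11 in KO (1.13, SE 0.20). The small leucine-rich proteoglycan gene Lum was at 5.66, 5.01 and 4.76 against 6.38, 6.74 and 6.28 (1.32, SE 0.24). The cell cycle inhibitor gene Cdkn1c was at 11.98, 12.08 and 12.49 against 13.16, 13.33 and 12.81 (0.92, SE 0.17). Cd34, a sialomucin gene of progenitor and stromal cells, was at 8.67, 8.64 and 8.37 against 9.55, 9.75 and 9.14 (0.92, SE 0.17). The others with positive differences were Rhobtb1 (0.56), the annexin gene Anxa8 (0.97), the collagen gene Col11a1 (0.62) and Sh2d5 (1.17). Negative differences belonged to Uts2b (-1.29), which encodes a urotensin peptide, and Xk (-0.51). For Col11a1, detected on no WT array, the further probes gave 0.051 and -0.10.

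Gene lists set these calls in context. They are described by counts and medians, beside 49.3% positive differences and a median of -0.0025 over all genes, and no set test was made. Of 41 reported targets of miR-143/145 tested, 2 were called higher and 0 lower, 28 (68.3%) were positive, and the median was 0.14. KO lines lay wholly above WT for 14 of the 41 and wholly below for 2, beside 9.57% and 9.12% of all genes tested. This list, as the others, was chosen with earlier results of these data known. Pdgfra, a receptor gene of platelet-derived growth factor and a fibroblast marker, was at 9.12, 9.43 and 8.76 in WT and 9.90, 9.81 and 9.87 in KO (0.76, SE 0.17, adjusted p = 0.125). Fscn1, which encodes the actin bundler fascin, was at 11.96, 12.03 and 12.34 against 12.85, 12.56 and 12.62 (0.56, SE 0.14, adjusted p = 0.171). Neither passed, although the lines did not overlap.

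Among 15 IGF axis genes tested, 0 were called and 11 were positive, with a median of 0.14, or 0.089 without KO4. Igfbp5, a reported target that encodes an IGF binding protein, stood at 8.17, 8.05 and 7.74 in the WT lines. It was at 9.96 and 9.97 in KO10 and KO15 but at 7.96 in KO4, inside the WT range (1.31, SE 0.52, adjusted p = 0.436). On both further Igfbp5 probes KO10 and KO15 were again high, at 9.44 to 9.74. KO4 stayed far below them, at 7.94 just above the WT lines on one probe and at 7.47 below them on the other. Igfbp4, at 8.40, 8.82 and 8.45 against 9.50, 9.60 and 9.02, did not overlap and did not pass (0.82, SE 0.25, adjusted p = 0.272). The second Igfbp4 probe gave 0.93 (SE 0.19, adjusted p = 0.0987 in the limma fit over probes).

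Of 21 Wnt, BMP and hedgehog niche genes tested, Wnt7b was the 1 called, 18 (85.7%) were positive and the median was 0.21. Without WT13 the median was 0.045. Bmp4, a crypt niche morphogen, had tight KO values of 10.88, 10.90 and 10.78 against 9.94, 9.83 and 9.25 in WT (1.18, SE 0.24, adjusted p = 0.0846). Its second probe gave 1.21. Gli2, a transcription factor gene of hedgehog signalling, was at 7.50, 7.61 and 7.59 against 8.39, 8.20 and 7.84 (0.58, SE 0.15, adjusted p = 0.187). The Wnt modulator gene Dkk3 had a difference of 0.57 (SE 0.17, adjusted p = 0.267). Further Dkk3 probes gave 0.75 (adjusted p = 0.0901 in the limma fit over probes) and 0.69 (adjusted p = 0.353).

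TGF-beta genes were mixed. Of 22 tested 1 was called higher (Tgfbr2), 11 were positive and the median was -0.015. With 1 line left out it ran from -0.023 (without KO10) to 0.012 (without KO15), and was 0.0099 without WT7, -0.0018 without KO4 and -0.010 without WT5. The TGF-beta-induced matrix gene Tgfbi had WT lines at 7.36, 7.59 and 7.59 and KO lines at 9.37, 9.80 and 8.31, a wide spread in KO (1.64, SE 0.34, adjusted p = 0.0884). The ligand gene Tgfb2 had a negative difference, at 6.90, 7.32 and 6.94 against 5.92, 6.29 and 6.61 (-0.78, SE 0.18, adjusted p = 0.124). So did Tgfb3 (-0.50, SE 0.17, adjusted p = 0.343). Other ligand genes tested, such as Tgfb1, were not among the members named by smallest p.

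**Figure D3:**
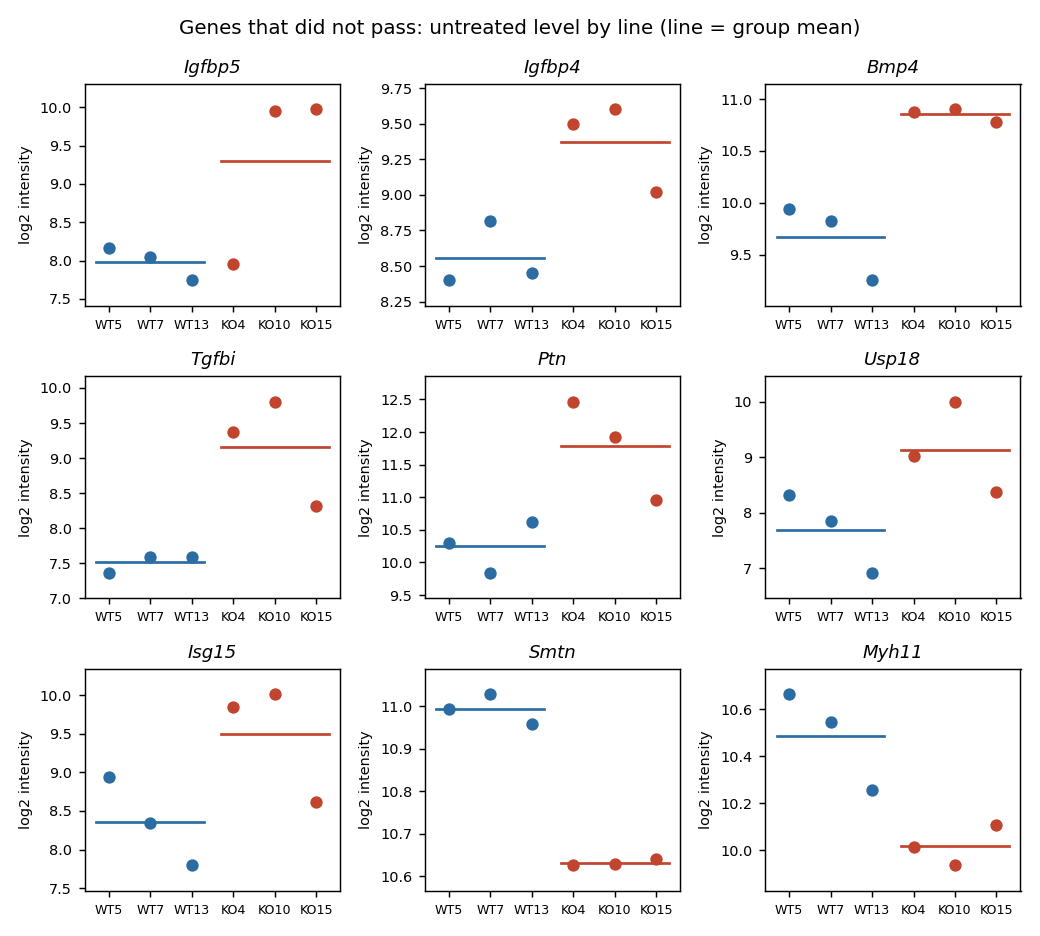
Normalised log2 intensity (y axis, a separate scale in each panel) of 9 genes that did not pass, in each untreated line on the x axis, with a line at each group's mean. Igfbp5 is high in KO10 and KO15 (9.96 and 9.97) and at the WT level in KO4 (7.96), while Bmp4 is high in all 3 KO lines (10.78 to 10.90).

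Collagens had 1 of 19 tested called higher (Col24a1), 10 positive and a median of 0.022, which was -0.080 without KO10, -0.039 without KO4, -0.036 without WT5 and 0.041 without WT7. Col6a1, at 9.90, 10.13 and 10.00 against 10.48, 10.62 and 10.28, had a difference of 0.45 on its first probe and 0.42 and 0.50 on the others (adjusted p = 0.201 for the gene). Of 28 matrix glycoprotein and protease genes 0 were called, 17 were positive and the median was 0.071, or 0.019 without KO15, 0.032 without WT13 and 0.20 without KO4. The thrombospondin gene Thbs2 came nearest after Lum, at 10.93, 10.86 and 10.99 against 11.35, 11.51 and 11.39 (0.49, SE 0.10, adjusted p = 0.0884). Cadherins and integrins had 1 of 23 called higher (Cdh4), 13 positive and a median of 0.059, which ran from 0.014 without KO10 through 0.022 without WT13, 0.029 without WT7 and 0.10 without WT5 to 0.15 without KO15. The integrin genes Itga5 (-0.57, SE 0.17, adjusted p = 0.263) and Itga1 (-0.55, SE 0.17, adjusted p = 0.291) had negative differences without overlap.

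Smooth muscle contractile genes had 0 of 22 called and 5 (22.7%) positive, with a median of -0.15. KO lines lay wholly below WT for 7 of the 22 and wholly above for 0, beside 9.12% and 9.57% of all genes tested. Some bright members had nearly equal means in WT and KO: Acta2 (15.24 and 15.25), Actg2 (14.66 and 14.65), Mylk (14.09 in both) and Tpm1 (14.98 in both). Other bright members had lower means in KO, among them Csrp1 (14.02 and 13.68), Actn1 (13.92 and 13.72) and Vcl (13.08 and 12.89). The largest difference of the list was that of Des (10.95 and 10.28), also lower in KO. Smtn, the smoothelin gene, was at 10.99, 11.03 and 10.96 in WT and 10.63, 10.63 and 10.64 in KO, a small difference between tight groups (-0.36, SE 0.09, adjusted p = 0.15). The smooth muscle myosin gene Myh11 was at 10.66, 10.54 and 10.25 against 10.01, 9.94 and 10.11 (-0.47, SE 0.19, adjusted p = 0.444). Csrp1 (-0.33) and the filamin gene Flna (-0.34) also lay wholly below WT without passing. Fibroblast and myofibroblast markers had 0 of 20 called, 11 positive and a median of 0.013, which was -0.015 without KO10, -0.010 without KO15, 0.029 without WT13, 0.036 without WT5 and 0.038 without KO4.

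Interferon-stimulated genes had a positive difference in 24 of 24 tested, with a median of 0.35, but 0 were called by limma and 5 had a positive difference at an unadjusted p under 0.05, where 5.01% of all genes did and 4.1% had a negative one. The median was 0.14 without background correction, 0.16 without KO10 and 0.19 without WT13, with 21 of 24 positive when either line was left out. The list's median by line overlapped between genotypes, at 6.93, 6.10 and 5.50 for WT and 6.77, 7.40 and 6.22 for KO. KO10 was the highest line and WT13 the lowest. Usp18, a deconjugase of the ubiquitin-like protein ISG15, was at 8.31, 7.85 and 6.92 against 9.03, 10.00 and 8.38, so that KO15 barely cleared WT5 (1.44, SE 0.39, adjusted p = 0.201). Isg15 was at 8.94, 8.35 and 7.80 against 9.85, 10.01 and 8.62 and overlapped (1.13, SE 0.35, adjusted p = 0.284). Of the 28 genes with a probe, 14 were detected on all 6 arrays.

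Other inflammatory and metabolic lists had no member called. Chemokines and cytokines had 19 of 26 positive and a median of 0.17, which was 0.042 without KO15, 0.077 without WT13, 0.085 without KO10 and 0.39 without KO4. The eosinophil chemokine gene Ccl11 was nearest there, at 5.08, 5.54 and 5.49 against 5.64, 6.07 and 6.38 (0.66, SE 0.23, adjusted p = 0.365). Acute phase and complement genes had 10 of 16 positive and a median of 0.075, which was 0.022 without KO15, 0.032 without WT5 and 0.14 without KO4. The complement inhibitor gene Serping1 was at 7.75, 8.01 and 7.58 against 9.35, 9.19 and 8.52 (1.24, SE 0.24, adjusted p = 0.0689), and its second probe gave 1.25. Saa3 varied more between lines than between genotypes, at 6.01, 8.39 and 7.42 against 6.88, 9.48 and 9.38. Cholesterol synthesis and sterol genes had 17 of 20 positive and a median of 0.15, led by the sterol transfer gene Stard4 at 9.40, 8.94 and 8.84 against 9.79, 9.80 and 9.85 (0.75, SE 0.15, adjusted p = 0.0711). Glycolysis and hypoxia genes had 19 of 24 positive with a median of 0.10, or 0.055 without KO10 and 0.17 without KO4. Cell cycle and replication genes had 17 of 27 positive with a median of 0.020. Without KO4 that median was -0.038 with 10 of 27 positive, and without KO15 it was 0.089 with 22 of 27 positive. The other lines also moved it, to 0.0032 (WT5), 0.0034 (KO10), 0.037 (WT7) and 0.042 (WT13).

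Markers of other cell types showed no called member apart from Emcn. Macrophage and leukocyte markers had 2 of 12 positive and a median of -0.24, which was 0.050 without KO4, -0.089 without WT5, -0.42 without WT7 and -0.49 without KO10. Their line medians were 6.42, 5.78 and 5.95 in WT and 5.20, 6.62 and 5.75 in KO, the lowest and the highest both being KO lines. Glial and neuronal markers had 0 of 4 positive and a median of -0.50 (-0.31 without WT7), with Sox10, a neural crest transcription factor gene, at 6.52, 6.77 and 5.45 against 5.20 in KO4, 5.67 in KO10 and a lower level still in KO15 (-0.95, SE 0.32, adjusted p = 0.318). The glial marker S100b and the neuronal marker Elavl4 were detected on no untreated array. Epithelial markers had 3 of 9 positive and a median of -0.14, which was -0.0046 without WT7, -0.045 without KO4, -0.25 without KO15 and -0.27 without WT13. Krt20, a keratin gene, was at 6.73, 6.80 and 6.94 against 5.44, 5.54 and 6.41 (-1.02, SE 0.25, adjusted p = 0.148). The bright epithelial-list gene Lyz1 shares near-identical sequence with the macrophage gene Lyz2, so its source is uncertain. Mesothelial and Cajal cell markers had 5 of 6 positive and a median of 0.27, which was -0.057 without WT13. Sex-linked genes had 3 of 4 positive and a median of 0.071, which ran from -0.48 without KO10 to 0.40 without WT13 and moved by over 1.5 times whichever line was left out. What these markers contribute to the calls was not tested.

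**Figure D4:**
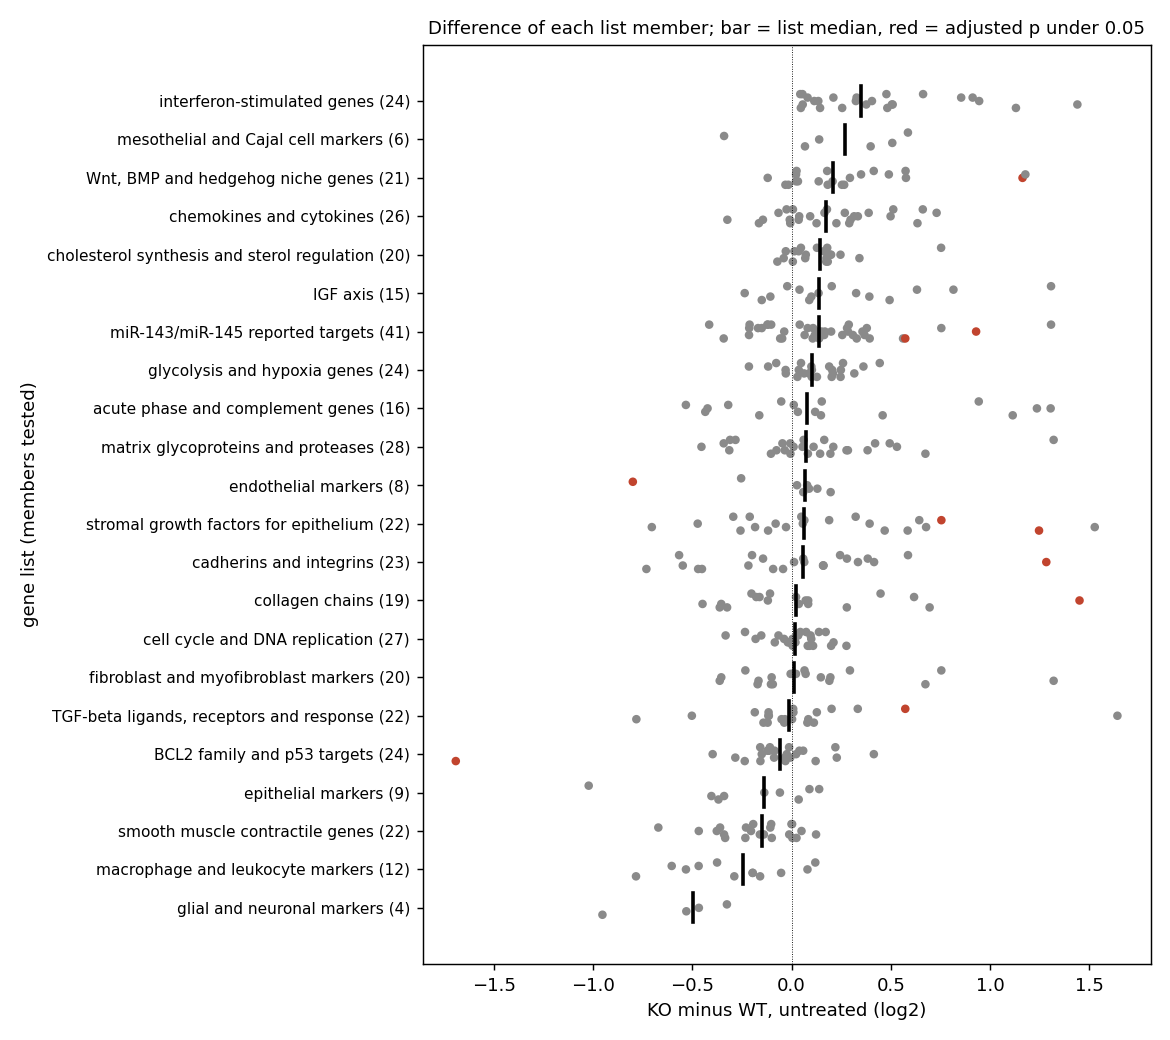
KO minus WT difference (log2, x axis) of each tested member of 22 gene lists (y axis, number tested in brackets), with a black bar at the list median and called genes in red. Medians run from -0.50 for glial and neuronal markers to 0.35 for interferon-stimulated genes, while no list had more than 2 called members.

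The same 6 lines after LPS gave the genotype difference again on separate arrays and a separate slide. Of the 20 genes 13 were detected on all 6 LPS arrays, and all 13 kept their direction. In all, 12 of the 20 were called there too, 8 higher and 4 lower, where 0.325% of all genes tested were called. These lines are the same as those untreated, so line differences enter both comparisons. Both also use the same estimate of each gene's spread, so a gene with a small spread is favoured in both. Differences with LPS were 1.31 (SE 0.10) for Mdk, 1.17 (SE 0.16) for Col24a1, 0.72 (SE 0.10) for Rtkn and -1.87 (SE 0.14) for Pmaip1. Of the 8 genes not called with LPS, Tgfbr2 (0.44) and Fjx1 (-0.59) were detected on all 6 arrays. Wnt7b, Neto1 and 6330403K07Rik were detected on 0 of the 6 LPS arrays, so their direction there is not measured. Aoc3 was detected on 1 WT and 0 KO arrays with LPS, Rerg on 0 and 3, and Cdh4 on 1 and 3. Among the 13 genes detected throughout, the difference with LPS was the smaller in size for 9. A test of the change in genotype difference called 0 of 11060 genes (limma, 392 or 3.54% at an unadjusted p under 0.05), and for the 20 genes the lowest adjusted p was 0.949. That fit takes no account of the line. With the line as a random block, chosen after seeing the data, 1 gene was called (647 or 5.85% at an unadjusted p under 0.05), and the lowest adjusted p of the 20 was 0.783. Unadjusted p-values under 0.05 in the first fit belonged to Wnt7b, Aoc3, Neto1 and 6330403K07Rik, the genes at or near background on the LPS arrays, so the size of their change is not measured.

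**Figure D5:**
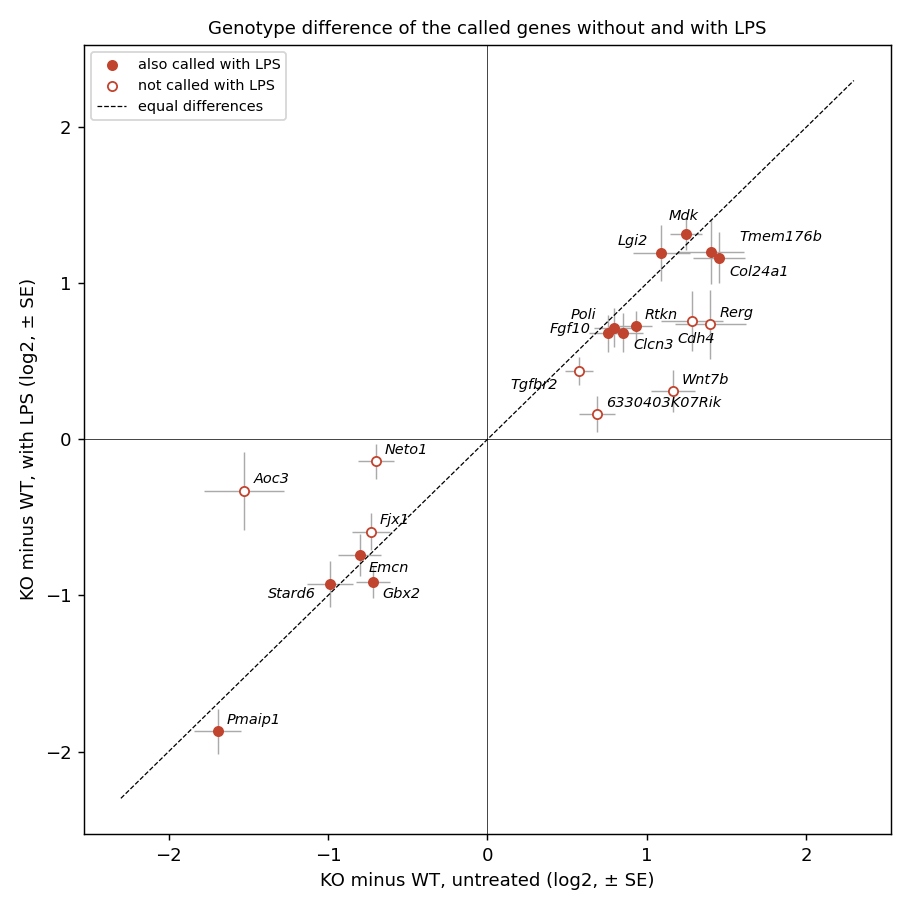
KO minus WT difference of the 20 called genes without LPS (x axis) and with LPS (y axis), in log2 units with SE bars, filled where the gene was also called with LPS. Mdk and Pmaip1 lie near the dashed line of equal differences, while the positions of Wnt7b, Neto1, 6330403K07Rik, Aoc3 and Rerg on the y axis rest on signals at background in at least 1 genotype.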

How the data were processed

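RNA of 12 cultures was hybridised to Illumina mouse bead arrays. The deposited intensity values are linear and unnormalised per the file headers, and the lowest was 90.08. Deposited detection p-values rate each probe against negative controls. The submitters' processing notes name BeadStudio without a version. The authors' second table of intensity values has column medians of 122.4 to 122.5.

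Signals were normalised with neqc (limma 3.58.1, R 4.3.3; offset 16, quantiles, log2). Kept probes had a detection p under 0.05 on 3 or more of 12 arrays, and the brightest stood for its gene. Platform annotation named 34885 probes with 1 symbol, 18 with several and 10378 with none. RefSeq for GRCm38.p6 gave chromosomes. The annotation's own build is unknown here.

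One limma fit of 4 group means over all 12 arrays (lmFit, eBayes, two-sided, Benjamini-Hochberg) gave differences, SE and adjusted p. The number of arrays limits precision. An exact permutation test of 3 against 3 lines cannot go below p = 0.1. Untreated arrays shared 1 slide, with WT at positions A to C and KO at D to F (genotype cannot be told apart from position), and LPS arrays lay on the other slide. Deviations of a line's untreated and LPS arrays, paired by label, correlated at 0.137 to 0.52. The deleted microRNAs themselves were not analysed here.

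Named are all called genes, the 10 uncalled of smallest p, up to 4 members per list by smallest p, Igfbp5, Xist, Eif2s3y and the 5 genes most like that of smallest p. The comparison, 23 lists and this rule were chosen with earlier results of these data known. The fit was tested on simulated data.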

Additional observations from a re-analysis of the deposited data

How the results depend on the processing

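All 20 called genes kept their direction in every alternative in which they were tested, and 3 (Mdk, Pmaip1 and Rtkn) were called in all 17. The count of 20 (13 higher, 7 lower) became 3 (2 and 1) with only the 6 untreated arrays, 39 (29 and 10) with an intensity trend and 194 (122 and 72) with array weights. The fit with the line as a random replicate block gave 28 (20 and 8), with all 20 still called. No paired analysis was possible between genotypes because WT and KO lines share no numbers. Authors' processed values and signals without background correction each gave 15 (13 and 2), with 11 of the 20 genes among them. With 1 array left out, 5 to 46 genes were called, 4 to 31 higher and 1 to 15 lower. Calls numbered 20 with 75th percentile scaling and 19 without a filter, with 18 and 16 of the 20 genes among them. A detection p under 0.01 gave 20 and probes averaged gave 20, each with 18 of the 20 genes. Detection on at least 3 of the 6 untreated arrays gave 25, with all 20 among them. Of the 3238 probes without a single gene symbol 0 passed (limma, 263 at an unadjusted p under 0.05). That count was 3 with the authors' values, 75th percentile scaling, no background correction or the stricter detection p, 2 with the replicate block, 5 with the trend, 10 with array weights and 0 to 1 with 1 array left out. For the change of genotype difference with LPS, 0 genes were called (limma, 392 at an unadjusted p under 0.05) and 1 with the replicate block, an alternative chosen after seeing the data. Of 99 named genes that did not pass, 36 passed in at least 1 alternative. The causes were not tested. With 3 lines a side, small differences of variable genes are beyond this design.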

Other observations

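Some of the widest differences belonged to variable genes that did not pass, chosen here after their values were seen. Gpc3, a heparan sulphate proteoglycan gene, had the largest positive difference, at 5.64, 5.55 and 6.05 in the WT lines and 8.58, 8.49 and 6.72 in the KO lines, KO15 being the lowest of those (2.18, SE 0.48, adjusted p = 0.119). Tmem176a, the neighbour and relative of Tmem176b, was at 6.86, 7.48 and 7.16 against 8.13, 8.88 and 9.05 (1.52, SE 0.32, adjusted p = 0.0939). The Iroquois homeobox genes Irx1 (1.20, SE 0.30, adjusted p = 0.167) and Irx2 (1.70, SE 0.46, adjusted p = 0.204) were highest in KO10, at 6.89 and 8.67.

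The largest negative difference was that of the transcription factor gene Ebf3 (-2.18, SE 0.84, adjusted p = 0.42). It was at 7.59 and 7.72 in WT5 and WT7, 9.73 in WT13, 6.31 and 7.65 in KO4 and KO15, and 4.54 in KO10. The LIM homeobox gene Isl1 and the choline transporter gene Slc5a7 had the same highest and lowest lines. Isl1 was at 8.52 in WT13 and 4.63 in KO10 and Slc5a7 at 9.49 and 4.62, and for all 3 genes the genotypes overlapped. WT13 and KO10 are the lines with low Xist.

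Over the 6 untreated arrays, the genes most like Mdk by Pearson's r were Morn2 (0.994), Tyms-ps (0.992), Zfp523 (0.990), Ttll4 (0.989) and Mms22l (0.985). These are descriptions over 6 points that share genotype, and their own differences were small, at 0.21, 0.19, 0.20, 0.38 and 0.37, none of them passing.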
